A study of Homo sapiens with 6 samples.

Results

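NF-kB is a family of dimeric transcription factors whose mRNAs, together with those of their inhibitors and activating kinases, were followed here in Ewing sarcoma cells made to express the propeptide of lysyl oxidase (LOX-PP). The 10 listed genes were the subunits RELA, RELB, REL, NFKB1 and NFKB2, the inhibitors NFKBIA, NFKBIB and NFKBIE, and the kinases IKBKB and CHUK. Members were every gene probe of the array whose transcript accession belongs to one of these genes, each probe being kept separate. This gave 11 probes for 9 of the 10 genes, out of 50599 probes and 20503 named genes in all. No probe was paired with NFKB2 through the RefSeq table used for names, so NFKB2 was not analysed here.

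RNA from 3 separate cultures of each cell type was hybridised to 6 Agilent arrays in 1 colour. A673/TR/empty replicates, the control, were A673 Ewing sarcoma cells carrying the tetracycline repressor (TR) and an empty lentiviral vector. A673/TR/LOX-PP replicates were the same cells carrying a LOX-PP cDNA under a doxycycline-inducible promoter. Both lines were thus derived by lentiviral transduction and drug selection, and which clone was hybridised is not given. The sources describe the 3 replicates of a group as separate experiments and not as separately derived lines. The p-values below therefore measure the spread between cultures. Other differences between the lines cannot be told apart from an effect of LOX-PP. The labels state doxycycline for 72 h at 1 uM for all 6 samples, and the sources leave unclear if the empty-vector cultures were also given it. All values below are the log2 signal of a probe over the 75th percentile of its array, and because each probe binds with its own strength, a level is compared only between arrays and not between probes.

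In resting cells NF-kB dimers are held in the cytoplasm by the inhibitors of the I-kB family, and a kinase complex containing the products of IKBKB and CHUK marks these inhibitors for destruction after signals such as TNF or interleukin-1. The released dimers enter the nucleus and activate genes of inflammation, survival and matrix breakdown, and among their own targets are genes of several subunits and inhibitors, so that the pathway limits itself. In a second branch, receptors such as the lymphotoxin beta receptor act through CHUK to release dimers containing RELB. These steps are largely changes of protein stability and location, which mRNA arrays do not measure.

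The kB element, the DNA sequence bound by NF-kB, is shown here for the analysed members whose promoter windows hold it. It is shown because genes of the pathway can also be its targets. RefSeq promoter windows (assembly GRCh38.p14, 250 bases before to 50 bases after a gene start) were searched on both strands for the 10-letter kB consensus. Of 35116 windows, 3956 (11.3%) held a match. Among the 9 analysed genes, 6 had a window, and the matches were in REL, NFKB1, NFKBIA and NFKBIB, while the windows of RELA and CHUK held none. RELB, NFKBIE and IKBKB had no window and could not be searched. NFKB1 and NFKBIB each have another window, for a different gene start, that held no match. The 11.3% is a share of windows and not of genes. Positions are counted from the gene start of the window that holds the match. The matches lie with their first base at -47 (REL), -49 (NFKB1), -81 (NFKBIA) and -28 (NFKBIB) from the gene start, and NFKBIB holds a further match that begins 39 bases after it. Capitals mark the match, and each sequence is read 5′ to 3′ on the strand of the gene.
REL, chr2:60881517-60881547, plus strand: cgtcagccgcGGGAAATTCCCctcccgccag
NFKB1, chr4:102501300-102501329, plus strand: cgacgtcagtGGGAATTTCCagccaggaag
NFKBIA, chr14:35404811-35404840, minus strand: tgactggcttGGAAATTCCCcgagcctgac
NFKBIB, chr19:38899931-38899961, plus strand: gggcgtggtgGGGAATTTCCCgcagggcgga
NFKBIB, further match, chr19:38899997-38900018, plus strand: gggcgactgcGGGGGGCCCCtg
The matched runs of REL and of the first NFKBIB match are 11 bases because matches on the opposite strands overlap. A match describes letters in a window and is not evidence of binding in these cells.

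All 11 member probes were well above background on all 6 arrays, so every member measured was expressed at a level the arrays could follow. None changed between A673/TR/LOX-PP and A673/TR/empty cells at a Benjamini-Hochberg adjusted p under 0.05 in limma (0 of 11). Over all 32647 probes tested, 5.66% passed, of which those with a higher signal on the LOX-PP arrays made up 3.31% and those with a lower signal 2.36% (1080 and 769 probes, and 908 and 983 under quantile normalization). At an unadjusted p under 0.05 the number of member probes was 2 of 11, and 21.3% of all probes tested. The methods' t-test passed 1 of the 11 after adjustment, against 1.73% of all probes. In bulk RNA of this kind, fewer cells expressing a gene and less RNA per cell cannot be told apart. The groups did not overlap for 2 of the 11, against 29.5% of all probes. Changes are given below as LOX-PP minus control relative to the median of all tested probes, which was 0.13 with this scaling and -0.03 with quantile normalization. The p-values from limma and from the methods' t-test are for the difference before this median is subtracted. The intervals are those of the relative change, so an interval and a p-value printed together answer different questions and can disagree. On the relative scale 9 of the 11 member probes lay below 0 and 2 above, with a median of -0.40 and a range from -0.86 to 0.67. The quartiles of all tested probes were -0.37 and 0.39.

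**Figure D1:**
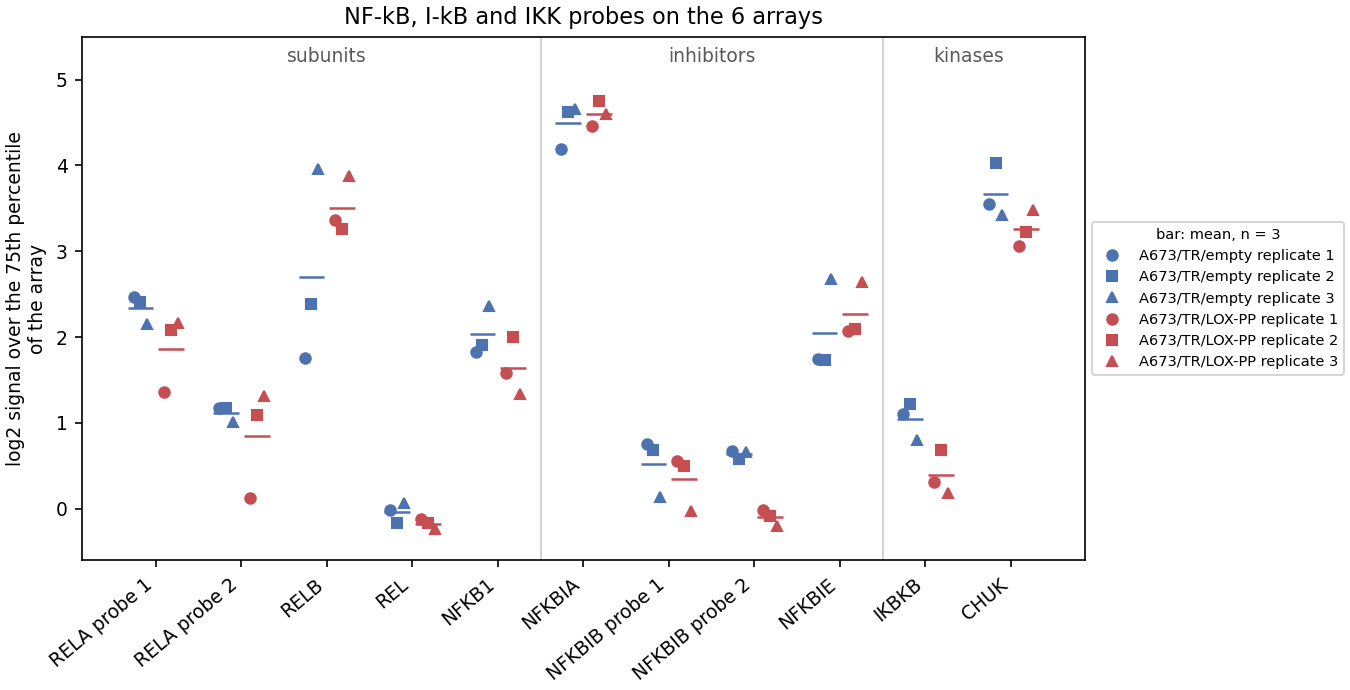
The vertical axis gives the log2 signal over the 75th percentile of the array for the 11 member probes, ordered as subunits, inhibitors and kinases, with control replicates in blue, LOX-PP replicates in red and a bar at each mean (n = 3). The groups are apart for NFKBIB probe 2 and for IKBKB, and RELB and NFKBIE on control replicate 3 lie among or above the LOX-PP values.

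Facts of the whole series bear on these values. Gene spots well above background made up 56.9% to 74.8% of each control array, compared with 59.3% to 74.1% of each LOX-PP array. One array, LOX-PP replicate 1, came from slide 2 with its own scan, whereas the 5 remaining arrays were together on slide 1. The single LOX probe, which checks the labels, read -0.09, 0.36 and 0.11 in control cells and -0.12, -0.68 and -1.29 in LOX-PP cells (adjusted p = 0.217), so it was not higher where the propeptide was to be induced. The sources do not place this probe within or outside the propeptide cDNA, and the directions below rest on the labels. Of the Ewing sarcoma markers, 10 of 10 genes were detected on all arrays and 0 passed the test (summed level 212.29 to 236.54 on the control and 236.05 to 291.12 on the LOX-PP arrays, in units of the 75th percentile). Of the leukocyte markers, 6 of 7 were detected on all arrays, at a summed level of 0.92 to 1.3 and 1.12 to 1.99, and ITGAM passed (adjusted p = 0.0313, but 0.0827 with the methods' t-test and 0.094 with a replicate block). The summed level of the 5 fibroblast markers, 4 of them detected on all arrays, was 39.68 to 45.29 in control and 11.54 to 15.99 in LOX-PP cells. COL1A2 carried most of the control sum and fell, from a mean of 5.16 to 2.25 (adjusted p = 0.00121 in limma). The list did not move as 1: COL1A1 went the other way, with a relative change of 0.53 (adjusted p = 0.175), while COL3A1 had -1.49 (adjusted p = 0.0793). LUM, detected on 2 control arrays and 1 LOX-PP array, passed with an adjusted p of 0.0191 that became 0.0663 with quantile normalization, 0.0543 with a replicate block and 0.0963 with the methods' t-test. For endothelium the ranges were 0.39 to 0.49 and 0.5 to 0.88, and for epithelium 83.21 to 84.87 and 60.37 to 85.65, with CDH1 on no array and none of either list past the test. The part of these markers in the results was not tested.

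RELA encodes the transactivating subunit of the classical dimer. Its brighter probe (chromosome 11, 10 spots) read 2.47, 2.41 and 2.15 on control replicates 1 to 3 and 1.36, 2.08 and 2.16 on LOX-PP replicates 1 to 3. LOX-PP replicate 1 was the lowest array, and the other two LOX-PP replicates were close to control replicate 3, so the groups touched. The mean was 2.34 ± 0.17 (SD, n = 3) in control and 1.87 ± 0.44 (SD, n = 3) in LOX-PP cells, a relative change of -0.60 (SE 0.28, 95% interval -1.27 to 0.06, adjusted p = 0.375). The second RELA probe read 1.17, 1.17 and 1.01 against 0.13, 1.09 and 1.31. It showed the same single low array, and here LOX-PP replicate 3 was the highest of the 6. Its relative change was -0.40 (SE 0.34, adjusted p = 0.69), and -0.08 without LOX-PP replicate 1, when that of the brighter probe was -0.39. Both RELA probes followed each other over the 6 arrays (r = 0.91, as a description), so the low value on LOX-PP replicate 1 was seen by both. The part of the slide in it cannot be told apart from that replicate.

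RELB encodes the subunit of the second branch. Its probe (chromosome 19) read 1.76, 2.39 and 3.96 in control cells and 3.36, 3.26 and 3.88 in LOX-PP cells. The 3 LOX-PP arrays lay together and above control replicates 1 and 2, whereas control replicate 3 was the highest of all 6. The means were 2.70 ± 1.13 (SD, n = 3) and 3.50 ± 0.33 (SD, n = 3), a relative change of 0.67 (SE 0.55, 95% interval -0.64 to 1.98, adjusted p = 0.455). This was the widest spread among the members. Without control replicate 3 the relative change was 1.23 (adjusted p = 0.0843), and without control replicate 1 it was 0.21 (adjusted p = 0.842), so that single control arrays decided its size.

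REL encodes c-Rel, a subunit best known from lymphocytes. The probe (chromosome 2) read -0.01, -0.17 and 0.07 against -0.12, -0.17 and -0.23. All 6 arrays lay within a narrow band and the groups overlapped. The relative change was -0.26 (SE 0.20, 95% interval -0.73 to 0.20, adjusted p = 0.737). NFKB1 encodes the precursor of the small subunit of the classical dimer. It was measured in 10 spots (chromosome 4), with 1.83, 1.91 and 2.36 on the control and 1.58, 2.00 and 1.34 in LOX-PP cells. LOX-PP replicates 1 and 3 were below every control array, and LOX-PP replicate 2 lay between control replicates 2 and 3. The relative change was -0.52 (SE 0.27, 95% interval -1.16 to 0.12, adjusted p = 0.45).

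Among the inhibitors, NFKBIA encodes I-kB alpha, the form that is rapidly degraded and resynthesised under NF-kB itself. Its probe (chromosome 14, 10 spots) read 4.19, 4.62 and 4.66 in control cells and 4.46, 4.75 and 4.6 in LOX-PP cells. Control replicate 1 was the lowest and the other 5 arrays were mixed. The means were 4.49 ± 0.26 (SD, n = 3) and 4.61 ± 0.14 (SD, n = 3), a difference of 0.12 (adjusted p = 0.815 in limma). The relative change of -0.01 (SE 0.23, 95% interval -0.56 to 0.54) was the smallest of the 11, with a sign that turned under quantile normalization (0.19). NFKBIE encodes I-kB epsilon, another NF-kB-inducible inhibitor. Its probe (chromosome 6) read 1.75, 1.73 and 2.68 against 2.07, 2.10 and 2.64. As with RELB, control replicate 3 was the highest of the 6, and control replicates 1 and 2 were the lowest. The relative change was 0.09 (SE 0.34, 95% interval -0.70 to 0.89, adjusted p = 0.755) and 0.34 without control replicate 3, and its sign turned in the alternatives listed in the closing section.

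NFKBIB, which encodes the more slowly turned over I-kB beta, held the lowest change among the members, in 1 of its 2 probes. This probe, A_33_P3343545 (chromosome 19), designed to a coding transcript, read 0.67, 0.58 and 0.66 in control cells and -0.01, -0.08 and -0.20 in LOX-PP cells. The groups did not overlap, and the gap of 0.58 between them was larger than the whole range within either. The means were 0.64 ± 0.05 (SD, n = 3) and -0.09 ± 0.10 (SD, n = 3), a relative change of -0.86 (1.81-fold, SE 0.20, 95% interval -1.32 to -0.40) with an adjusted p of 0.0834 in limma. With the methods' t-test the adjusted p was 0.0344, and with a common floor under all arrays it was 0.0107, while with a replicate block it was 0.19. Over the 16 alternatives it ran from 0.0107 to 0.341. The other probe, designed to a non-coding transcript record of the gene, read 0.75, 0.69 and 0.14 against 0.56, 0.50 and -0.03. Replicate 3 was the lowest of both groups there, and the groups overlapped. Its relative change was -0.31 (SE 0.28, 95% interval -0.97 to 0.35, adjusted p = 0.755). The difference between the probes moved from a mean of -0.11 in control to 0.44 in LOX-PP cells, which an exact permutation test (two-sided, n = 3 per group) gave p = 0.1, the smallest that 3 against 3 arrays allow. For the RELA pair the same exact permutation test gave p = 0.2.

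IKBKB encodes the kinase subunit that acts on I-kB proteins in the classical branch. The probe (chromosome 8) read 1.11, 1.22 and 0.80 in control cells and 0.31, 0.68 and 0.18 in LOX-PP cells. All LOX-PP arrays lay below all control arrays, though the gap of 0.12 was less than the range within either group. The means were 1.04 ± 0.21 (SD, n = 3) and 0.39 ± 0.26 (SD, n = 3), a relative change of -0.78 (1.71-fold, SE 0.24, 95% interval -1.34 to -0.21). The unadjusted p from limma of 0.0306, for the difference of -0.65 between the means, became 0.181 after Benjamini-Hochberg adjustment. Over all alternatives the adjusted p was between 0.132 and 0.497. The 720 tested probes of chromosome 8 had a median relative change of -0.39, and 72.6% of them were below 0, whereas the median was 0.14 for the 1521 probes of chromosome 19, which holds RELB and NFKBIB. Medians were also below 0 for chromosomes 2 (-0.22, REL), 4 (-0.25, NFKB1), 10 (-0.17, CHUK) and 11 (-0.27, RELA). They were -0.06 for chromosome 6 (NFKBIE) and -0.07 for chromosome 14 (NFKBIA). The part of the chromosomes in the IKBKB value, in those of the other members and in the member median was not tested. CHUK, the partner kinase that also serves the second branch, read 3.55, 4.03 and 3.42 against 3.06, 3.23 and 3.48 (chromosome 10). LOX-PP replicate 3 lay between the control values and the other two LOX-PP arrays below them. Its relative change was -0.54 (SE 0.25, 95% interval -1.14 to 0.06, adjusted p = 0.401).

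**Figure D2:**
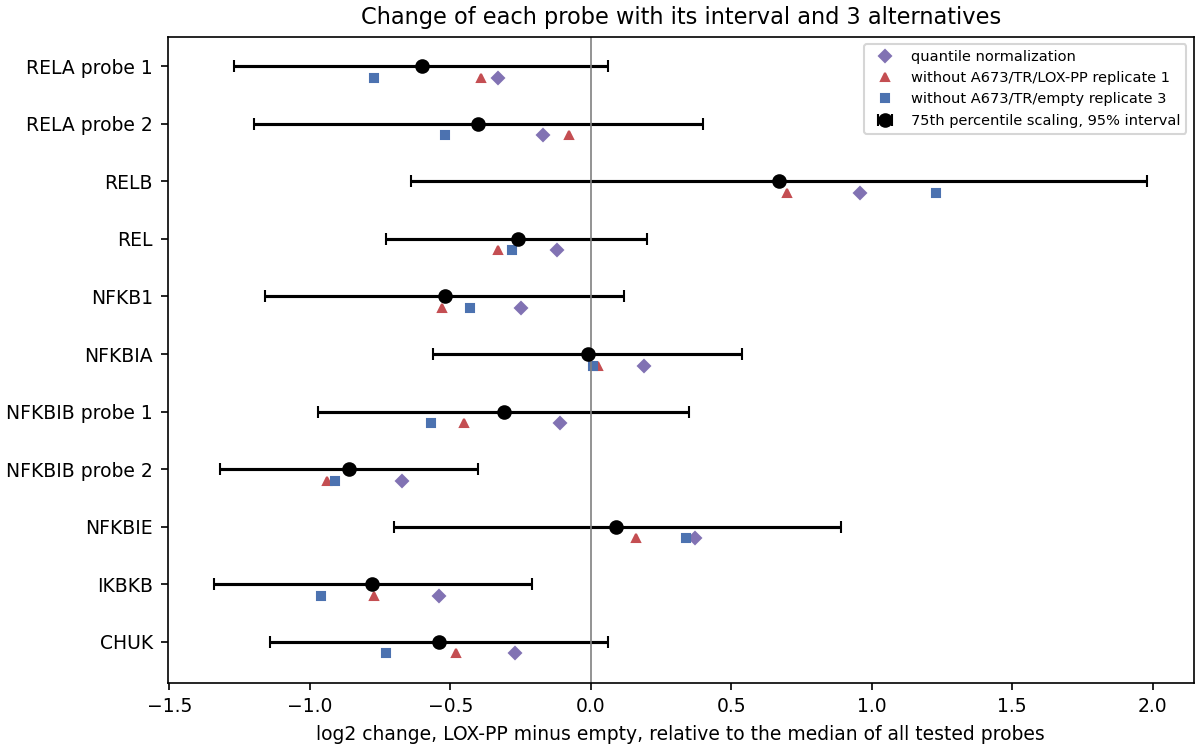
Black points give the log2 change of each member probe, LOX-PP minus control, relative to the median of all tested probes. They carry the 95% interval from limma, moved by the same median. The coloured marks give the same change with quantile normalization, without LOX-PP replicate 1 and without control replicate 3. The interval leaves out 0 for NFKBIB probe 2 and IKBKB and is widest for RELB, whose value is 1.23 without control replicate 3.

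For 9 of the 11 member probes the interval of the relative change includes 0, and the SE ran from 0.20 to 0.55. Over all tested probes the smallest relative change that passed was 0.78. For RELA, REL, NFKB1, NFKBIA, NFKBIB, IKBKB and CHUK no interval reached a rise above 0.54, whereas a rise of up to 1.98 for RELB and 0.89 for NFKBIE lies within theirs.

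The 3 members printed in 10 spots allow the spread within an array to be set beside that between arrays. The SD between spots was 0.036 to 0.072 for RELA, 0.027 to 0.067 for NFKB1 and 0.022 to 0.118 for NFKBIA. The SD between replicates was 0.17 and 0.44 for RELA, 0.28 and 0.34 for NFKB1 and 0.26 and 0.14 for NFKBIA, in control and LOX-PP cells respectively.

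**Figure D3:**
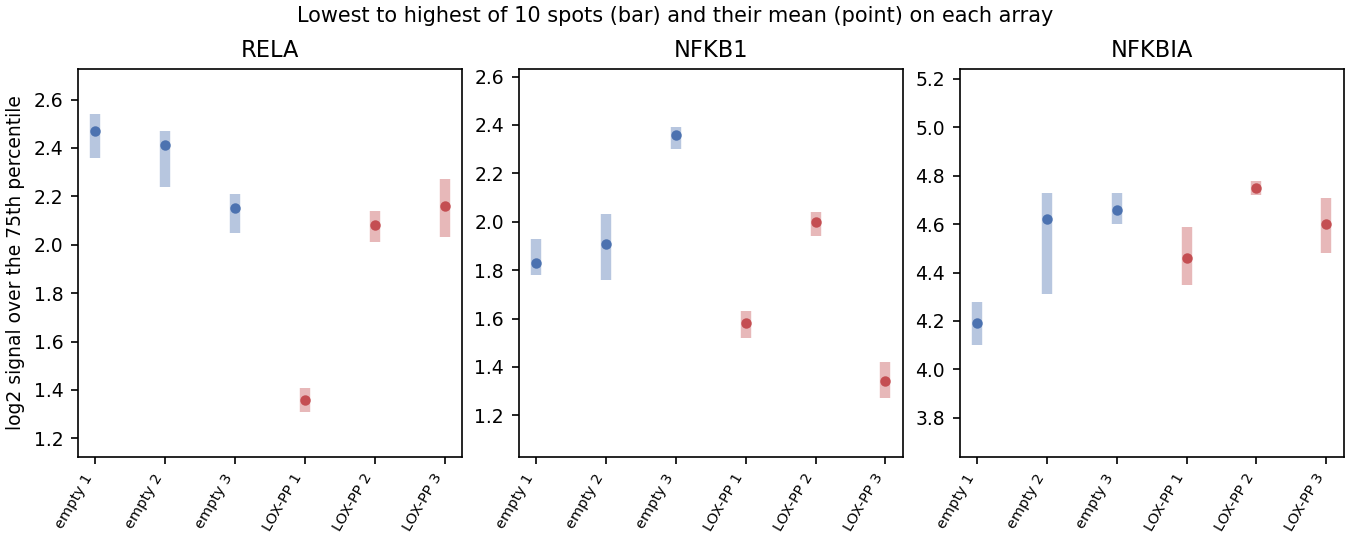
For RELA, NFKB1 and NFKBIA, each bar runs from the lowest to the highest of the 10 spots on an array and the point is their mean, as log2 signal over the 75th percentile of the array, with control arrays in blue and LOX-PP arrays in red. The RELA spots of LOX-PP replicate 1 (1.31 to 1.41) lie below those of the other 5 arrays, where the lowest spot was at 2.01.

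The probes whose pattern over the 6 arrays was most like that of RELA and RELB were looked up among the 22212 and 22213 named probes. For the brighter RELA probe these were RAPGEF1 (r = 0.9972), HNRNPR (r = 0.997) and SLK (r = 0.9953), and 977 probes had an r over 0.9. Each of these had their lowest value on LOX-PP replicate 1. For RELB they were ANXA5 (r = 0.989), MTMR9LP (r = 0.987) and DTX2P1-UPK3BP1-PMS2P11 (r = 0.9864), with 137 probes over 0.9. With 6 arrays that share their groups and scaling, these values describe likeness only.

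Genes around the members were taken from 3 lists. The upstream list holds ligands, receptors and adaptors (45 genes), the modulator list holds regulators of the pathway (34 genes), and the target list holds genes known to be induced by NF-kB (49 genes). In the upstream list 1 of 50 tested probes rose and 1 fell (4.0%), with a median relative change of 0.01. In the modulator list 1 of 38 rose and 0 fell (2.63%), with a median of 0.10, and the methods' t-test passed 0. In the target list 1 of 58 rose and 4 fell (8.62%), with a median of 0.27. At an unadjusted p under 0.05 in limma the counts were 15 of 50 upstream, 15 of 38 modulator and 22 of 58 target probes, beside 21.3% of all probes. The target list was thus not moved in a single direction, and its share past the test stood beside 5.66% of all probes.

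The upstream gene that fell was LTBR, the receptor for lymphotoxin that feeds the second branch. It read 1.06, 1.13 and 0.89 in control cells and -3.17, -2.35 and -3.06 in LOX-PP cells. The groups were far apart, with a relative change of -4.02 (16.2-fold lower, SE 0.28, adjusted p = 0.00113), and it passed in all 16 alternatives. IL1B, the cytokine interleukin-1 beta and both an activator and a target of NF-kB, rose. It read -2.57, -2.41 and 0.18 against 2.20, 2.00 and 3.13, and control replicate 3 stood above the other control arrays while still below every LOX-PP array. The relative change was 3.91 (SE 0.75, adjusted p = 0.0292), and this call was lost in 9 of 16 alternatives (adjusted p from 0.00402 to 0.136). These include the omission of any single array other than control replicate 3, with changes from 3.44 to 4.21, whereas without control replicate 3 the change was 4.73 (adjusted p = 0.00402). MALT1, an adaptor in antigen receptor signalling, came next with a relative change of -1.53 (adjusted p = 0.0559).

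The modulator that rose was TNFAIP3, which encodes A20, a deubiquitinating feedback inhibitor of the pathway. It read -2.67, -2.68 and -0.96 on the control and 1.25, 0.46 and 0.22 in LOX-PP cells. All LOX-PP arrays were above all control arrays, control replicate 3 being the highest control. The relative change was 2.62 (6.15-fold higher, SE 0.53, adjusted p = 0.0324), and the call was lost in 10 of 16 alternatives (adjusted p from 0.00942 to 0.148), among them the methods' t-test and the replicate block (adjusted p = 0.0818). It was lost on leaving out any array but control replicate 3, with changes from 2.28 to 2.83, and was 3.13 (adjusted p = 0.00942) without that array. PELI1, an E3 ubiquitin ligase of Toll-like receptor signalling, and PDLIM2, a ligase for nuclear RELA, had relative changes of -1.10 (adjusted p = 0.0649) and -1.19 (adjusted p = 0.074).

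Of the targets, the secreted pattern recognition protein PTX3 fell most. It read 1.49, 1.88 and 1.34 against -1.08, -1.63 and -0.86, a relative change of -2.88 (SE 0.28, adjusted p = 0.00388) that passed in all 16 alternatives. MMP9, a matrix metalloproteinase, read 2.24, 2.34 and 2.26 against 0.61, 0.55 and 0.82, a relative change of -1.75 (SE 0.20, adjusted p = 0.00731) that was lost without control replicate 1 (adjusted p = 0.0642) or 2 (adjusted p = 0.0554). The groups of both genes were far apart, and the replicates of MMP9 lay close together. PLAU, the urokinase plasminogen activator, read 2.84, 3.20 and 3.20 against 1.80, 2.24 and 1.61, with -1.32 (SE 0.25, adjusted p = 0.0431). Another PLAU probe also fell but did not pass, with -1.01 (SE 0.23, adjusted p = 0.077 in limma). TNFAIP2, a TNF-induced gene, read 1.05, 0.95 and 2.45 against -0.58, -0.20 and -0.55, with -2.05 (SE 0.42, adjusted p = 0.0483). The PLAU call was lost in 11 of 16 alternatives, leaving out any single array among them (-1.43 to -1.19), and the TNFAIP2 call in 12, leaving out any array but control replicate 3 among them (-2.26 to -2.0). The target that rose was IL6, the cytokine interleukin-6, at -4.79, -4.97 and -4.25 against -2.94, -3.12 and -3.73, with 1.28 (SE 0.31, adjusted p = 0.0483). It was well above background on 2 of the 3 control arrays, and its call was lost in 13 of 15 alternatives, leaving out any single array among them (1.08 to 1.51). All its control values lie below the common floor of -3.70, and with that floor its relative change was 0.38 (adjusted p = 0.331).

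Promoter windows were looked up only for the list genes past the threshold. Those of TNFAIP3, PTX3 and IL6 held the kB consensus and those of LTBR, IL1B, PLAU and TNFAIP2 did not. For MMP9 the search gave no window, and the other list genes named in the text were not looked up. The matches are shown because TNFAIP3 and IL6 were higher and PTX3 lower on the LOX-PP arrays, each with such an element. Capitals mark the match, printed on the plus strand, which is the strand of each of these genes.
TNFAIP3, chr6:137867182-137867211: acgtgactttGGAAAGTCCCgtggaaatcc
TNFAIP3, chr6:137867194-137867223: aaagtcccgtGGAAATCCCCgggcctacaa
PTX3, chr3:157436743-157436773: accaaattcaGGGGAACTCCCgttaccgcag
IL6, chr7:22727117-22727146: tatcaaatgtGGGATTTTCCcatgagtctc
The TNFAIP3 matches begin at -67 and -55 and do not overlap each other, although the stretches printed around them do. The matches in PTX3 and IL6 begin at -97 and -73.

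**Figure D4:**
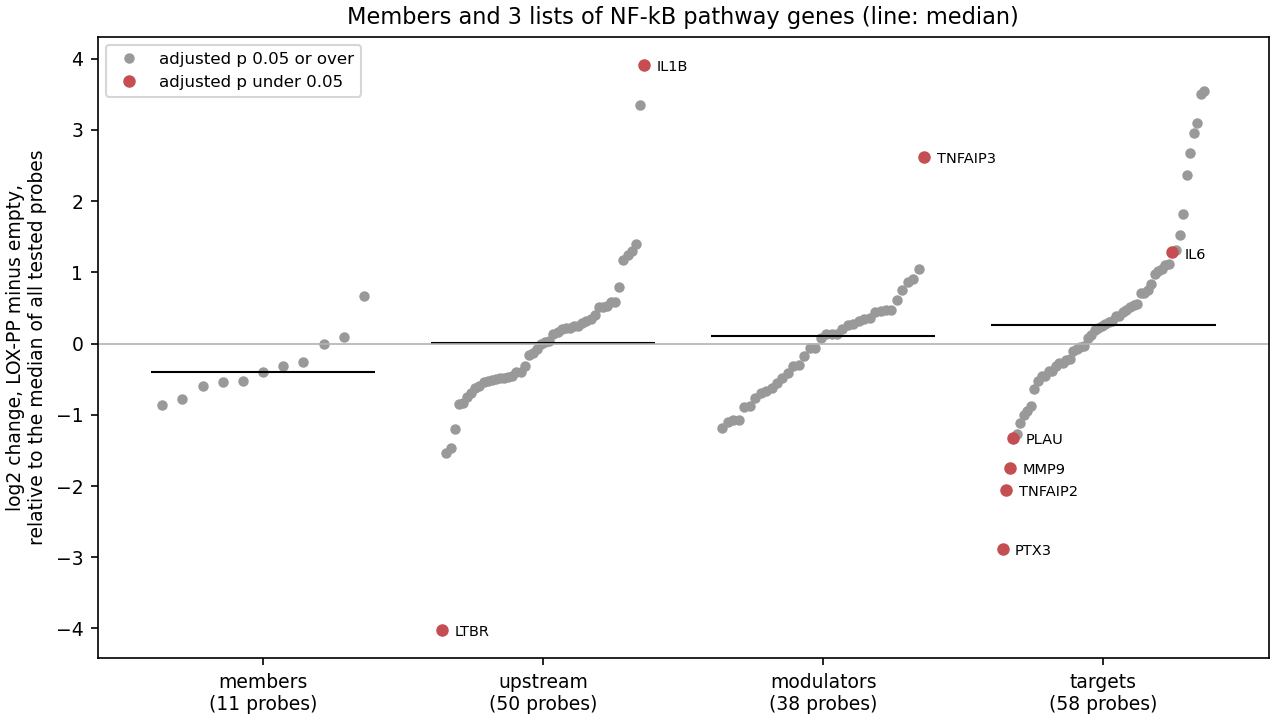
Each point is a tested probe of the members or of the upstream, modulator or target list, placed by its log2 change, LOX-PP minus control, relative to the median of all tested probes, with a line at the median of each set and probes past an adjusted p of 0.05 in red. Member probes span -0.86 to 0.67 with none in red, whereas LTBR at -4.02 and IL1B at 3.91 are the lowest and highest red points.

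The control arrays were not alike in NF-kB-related genes. Among probes well above background on all 3 control arrays, control replicate 3 exceeded both other control arrays by more than 1 on the log2 scale for 9 of 50 target probes (18.0%), 7 of 48 upstream probes (14.6%), 4 of 37 modulator probes (10.8%) and 1 of 11 member probes (RELB), against 4.81% of 26448 probes overall. No probe of the members or lists stood out in this way on control replicate 1 or 2. The shares over all probes were 0.00378% and 0.106% there, so these sets did not differ from all probes in this. The genes that follow were picked for illustration after their values were seen. TNF, the prototype activator, read -4.43, -4.96 and -1.21 in control cells and -0.30, 0.17 and -0.05 in LOX-PP cells. IL32, a cytokine, read -2.51, -3.08 and 2.89 against 2.79, 1.39 and 2.40 in its A_23_P15146 probe. The adhesion molecule ICAM1 read -2.30, -2.49 and 1.67 against 0.25, -0.03 and 0.35. BIRC3, which encodes a ubiquitin ligase of TNF receptor complexes, read -4.04, -3.75 and -0.02 against -1.0, -1.44 and -1.07. For IL32, ICAM1 and BIRC3, control replicate 3 was the highest of all 6 arrays, as it was for RELB and NFKBIE.

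When control replicate 3 was left out, 10 target probes were called higher and 3 lower (22.4% of 58), and 6 upstream probes higher and 1 lower (14.0% of 50), beside 4.05% of all tested probes. As this array was singled out for its high values of these genes, its omission raises them by construction, and the counts describe how far the lists rest on 1 array and are no further evidence of a rise. The probes called higher included IL32 (relative change 4.79), TNF (4.44), CXCL1 (4.39), BIRC3 (2.53) and ICAM1 (2.39). For TNF, CXCL1 and BIRC3 both remaining control values lie below the common floor of -3.70, so these sizes are uncertain. Another CXCL1 probe was not among those called, and its relative change with all 6 arrays was 0.97 (adjusted p = 0.174 in limma). For 5 of the 10 target probes called higher, those of CXCL8, CXCL3, CXCL10, CCL20 and 1 of the 2 CXCL2 probes, neither remaining control array was well above background, so no size is given. Without control replicate 1 or without control replicate 2, 0 target probes were called higher and 1 lower (1.72% of 58). The shares of all tested probes were also small in these fits, at 1.25% and 1.36%. The members had 0 of 11 past the threshold in every one of the 6 omissions, with medians from -0.52 to -0.29. What set control replicate 3 apart was not tested.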

How the data were processed

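Per the labels, the authors hybridised Cy3-labelled RNA to Agilent SurePrint G3 60K arrays and extracted spots with Agilent Feature Extraction 10.7. They deposited the background-corrected intensity of each spot and a table of processed log2 values, which match log2 signals scaled to the array's 75th percentile and centred on each probe's median, within 0.02 for 50537 of 50599 probes. The analysis began from the deposited intensity: spots flagged as outliers (213 to 353 per array) and control spots were dropped, repeated spots were averaged on the log2 scale, and each array's 75th percentile was subtracted. No gene spot was saturated. The 32647 probes detected above background on 3 or more arrays entered an unblocked fit in limma (version 3.58.1, R 4.3.3), with calls at a Benjamini-Hochberg adjusted p under 0.05. A RefSeq table named 28174 probes. The array files state hg19, except that of LOX-PP replicate 1, which states no build. The RefSeq windows are from GRCh38.p14, so the windows were taken by gene symbol. Precision is limited by the number of arrays, 3 in each group. Replicates were separate experiments.

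The members and lists were chosen with earlier results of these data known. Named in the text are every member probe, up to 8 probes of each list past the threshold (or, where fewer than 3 passed, the 3 genes with the smallest p), the 3 probes most like RELA and RELB, and cell type markers. The genes picked from control replicate 3 fall outside this rule. Alternatives were quantile normalization, the median of detected probes, the authors' processed values, normexp (offset 50, on the median spot signal), 2 other filters on dim probes, a common floor (-3.70), slide and replicate blocks, the methods' t-test and leaving out each array. The steps were tested on simulated data.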

Additional observations from a re-analysis of the deposited data

How the results depend on the processing

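The median change of the members stayed between -0.58 and -0.17 over the 16 alternatives and kept its sign in each. Member probes past the threshold numbered 1 with a common floor and 1 with the methods' t-test (both NFKBIB) and 0 in the other alternatives. Of 176 single comparisons of the 11 member probes, 163 kept direction and side of the threshold. The sign of NFKBIA turned to 0.055 with a common floor, 0.047 among probes detected on all 6 arrays, 0.19 with quantile normalization, 0.026 with a slide block or without LOX-PP replicate 1, 0.12 without control replicate 2 and 0.009 without control replicate 3 (range with 1 array left out -0.15 to 0.12). That of NFKBIE turned to -0.084 with no filter, -0.094 without LOX-PP replicate 3, -0.046 without control replicate 1 and -0.005 without control replicate 2 (range with 1 array left out -0.094 to 0.34).

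All differential probes numbered 1849, but 516 with no filter, which tests 50599 probes, 566 with the methods' t-test and 407 to 2062 when 1 array was left out (407 without control replicate 1, 444 without control replicate 2, 892 without LOX-PP replicate 2, 1037 without LOX-PP replicate 3). Upstream probes past the threshold numbered 2, but 1 with a common floor, no filter, a slide block or the methods' t-test, 5 among probes detected on all 6 arrays, and 1 to 7 with 1 array left out (7 without control replicate 3). Modulator probes numbered 1, but 3 among probes detected on all 6 arrays, 2 with quantile normalization, 0 with no filter or the methods' t-test, and 0 to 1 with 1 array left out (0 without LOX-PP replicate 3 or control replicate 1 or 2). Target probes numbered 5, but 2 with no filter, a slide block or the methods' t-test, and 1 to 13 with 1 array left out (13 without control replicate 3, 1 without control replicate 1 or 2, 2 without any LOX-PP array). The cause was not tested. The slide block equals leaving out LOX-PP replicate 1, the only array on its slide.

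With the replicate number as a block, 860 of all probes passed, with 0 members, 2 upstream probes, 0 modulators and 2 targets. Deviations of arrays with the same number correlated at 0.267, -0.39 and 0.227, and those of arrays with different numbers at -0.464 to 0.391. These values show no pairing by number, but with 3 arrays in each group they cannot settle if the samples were paired. Depth is not at issue for the members, which were well above background on every array. Among the lists, 8 target and 14 upstream probes were too dim to test.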
